A study of Mus musculus with 6 samples.

Results

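Messenger RNA of potassium channel genes was examined in whole lungs of 6 mice that had breathed 10% oxygen for 7 days. The genes were chosen by symbol: every listed gene named Kcn followed by letters and a number, with at least 1 read in 3 or more of the 6 libraries. Of the 25965 genes listed, 92 matched the pattern of symbols and 79 met the rule. All 6 mice were ZBTB46 DTR chimeras, in which cells with an active Zbtb46 gene, which marks classical dendritic cells, carry the diphtheria toxin receptor. The 3 mice of the PBS group were given vehicle (phosphate-buffered saline). The 3 mice of the DT group were given diphtheria toxin, 3 doses in all, to remove classical dendritic cells. The first dose, at 40 ng per g, came 1 day before hypoxia, and 8 ng per g followed every 3 days after that. This timing is that of the treatment protocol, as the series design text was unclear on it. The comparison was made to find lung processes that go with protection from hypoxic pulmonary hypertension. Strains of host and donor, age, and the share of host cells left were not given in the sources used here. Neither group held a normoxic lung or toxin-treated mice without the receptor, so an effect of dendritic cell loss and one of toxin itself cannot be told apart. Lung endothelium is known to transcribe Zbtb46 as well.

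Potassium channels let potassium leave or enter the cell along its gradient and so set the membrane potential. In pulmonary artery smooth muscle, closing of potassium channels in low oxygen is known to depolarise the cell, open voltage-gated calcium channels and narrow the vessel. The pore-forming families are the inward rectifiers (Kcnj), the tandem-pore background channels (Kcnk), the voltage-gated channels (Kcna, Kcnb, Kcnc, Kcnd, Kcnh and Kcnq, with the modifier subunits Kcnf, Kcng, Kcns and Kcnv) and the channels opened by calcium or sodium (Kcnma, Kcnn, Kcnt and Kcnu). Auxiliary subunits (Kcnab, Kcne, Kcnip and Kcnmb) set how those pores open. Whole lung also holds heart muscle of the pulmonary veins, airway epithelium, nerves and blood, and several of these channels are known from such cells.

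Levels are in RPM, the reads of a gene scaled to a common library size, from libraries of 16766383 to 19084658 reads, and 1 read was worth 0.0524 to 0.0596 RPM. Of the 79 members, 66 passed the filter on low values and were tested for DT against PBS together with all 16708 genes that passed it. The other 13 members never exceeded 0.85 RPM in any mouse. Just inside the rule, Kcnj9 had reads in 3 libraries (0.111, 0.266 and 0.105 RPM in the PBS mice, none in DT), and just outside it Kcne1 had a read in 2 (0.0555 RPM in PBS mouse 1 and 0.0596 in DT mouse 1). No read leaves room for up to 3, or 0.157 to 0.179 RPM, by counting error alone. In whole lung, fewer cells of a type and less RNA per cell cannot be told apart. The 10 markers of classical dendritic cells all had a negative log2 fold change and none passed the test. Zbtb46 itself, which made up much of their sum, stood at 108, 99.8 and 89.1 RPM in PBS and 87.2, 82.0 and 84.1 in DT. The other 9 summed to 37.5, 104 and 117 RPM in PBS mice 1 to 3 and to 49.9, 34.5 and 20.6 in DT mice 1 to 3. PBS mouse 1 thus lay with the DT mice for these markers, against its label, and the groups overlapped. Without that mouse, 0 members passed the test and 13 had an unadjusted p below 0.05, the same counts as with all 6 mice. Erythroid markers summed to 170 to 224 RPM in PBS and 329 to 414 in DT (5 of 10 past the test, all higher).

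Per kilobase of exonic length, a scale that allows for the length of the gene model, the highest of the 79 was Kcnk3 at 27.1 RPM per kilobase (mean of 6 mice). Kcnk3 encodes an acid-sensitive background channel of pulmonary artery smooth muscle and heart, which is mutated in some heritable pulmonary arterial hypertension in humans. It was followed by the inward rectifier Kcnj15 (24.7 RPM per kilobase) and the auxiliary subunit Kcne2 (23.1). The background channels Kcnk1 (16.3) and Kcnk6 (14.1) were also among the higher members. Kcna3, the voltage-gated channel known from lymphocytes, stood at 10.3 RPM per kilobase, close to Kcnh2 at 10.4 and Kcnk2 at 10.5. Kcnma1, the pore of the large-conductance calcium-activated channel, is a very long gene model and stood low, at 0.197 RPM per kilobase. The order is one of deposited values and may not be one of transcript number. Sftpc, which encodes surfactant protein C and is known as one of the most abundant lung messages, had 0.158 reads per exonic base and 8.91 RPM, against 0.498 reads per base for Kcnk3. In all, 15 of the 79 members had more reads per base than Sftpc. How this bears on the fold changes and intervals of the more abundant members, and on the sums of cell type markers, was not tested.

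**Figure D1:**
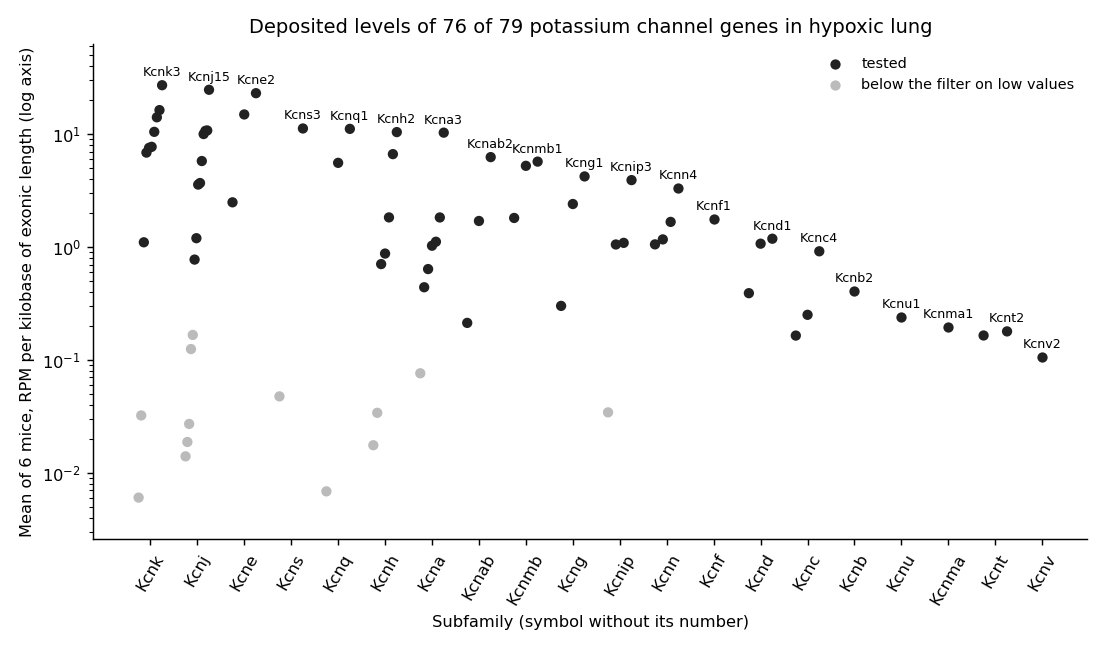
Mean level of 76 of the 79 potassium channel genes over the 6 mice (RPM per kilobase of exonic length, log axis) by subfamily; black points were tested, grey points were below the filter on low values, and the highest member shown of each subfamily is named. Kcnk3 (27.1), Kcnj15 (24.7) and Kcne2 (23.1) stand at the top, and 13 members lie below the filter.

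None of the 66 tested members was higher or lower in DT than in PBS after adjustment over all genes (limma, Benjamini-Hochberg, threshold 0.05). Over all 16708 genes, 0.275% were called higher and 0.00599% lower. At an unadjusted p below 0.05, limma gave 13 of 66 members (19.7%), against 9.03% of all genes tested. Of these 13, 5 were higher in DT (7.58% of members, 5% of all genes) and 8 were lower (12.1%, against 4.03%). With limma-voom on recovered reads, 0 members passed and 15 had an unadjusted p below 0.05. The median log2 fold change of the 66 was -0.08, beside 0.00063 for all genes tested, with 40 of the 66 negative (60.6%, against 49.6% of all genes) and 26 positive (39.4%, against 50.4%). The absolute log2 fold change had a median of 0.19 in the members and 0.07 in all genes, and the members were also sparser, at a median of 11.6 RPM against 28.5. The groups did not overlap in 12 members, 5 of them higher in DT (7.58%, against 7.65% of all genes) and 7 lower (10.6%, against 6.79%). The share that lay higher without overlap was thus close to that of all genes. Among the 7 lower, the groups of Kcnv2 were parted by library size alone, at equal read numbers.

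**Figure D2:**
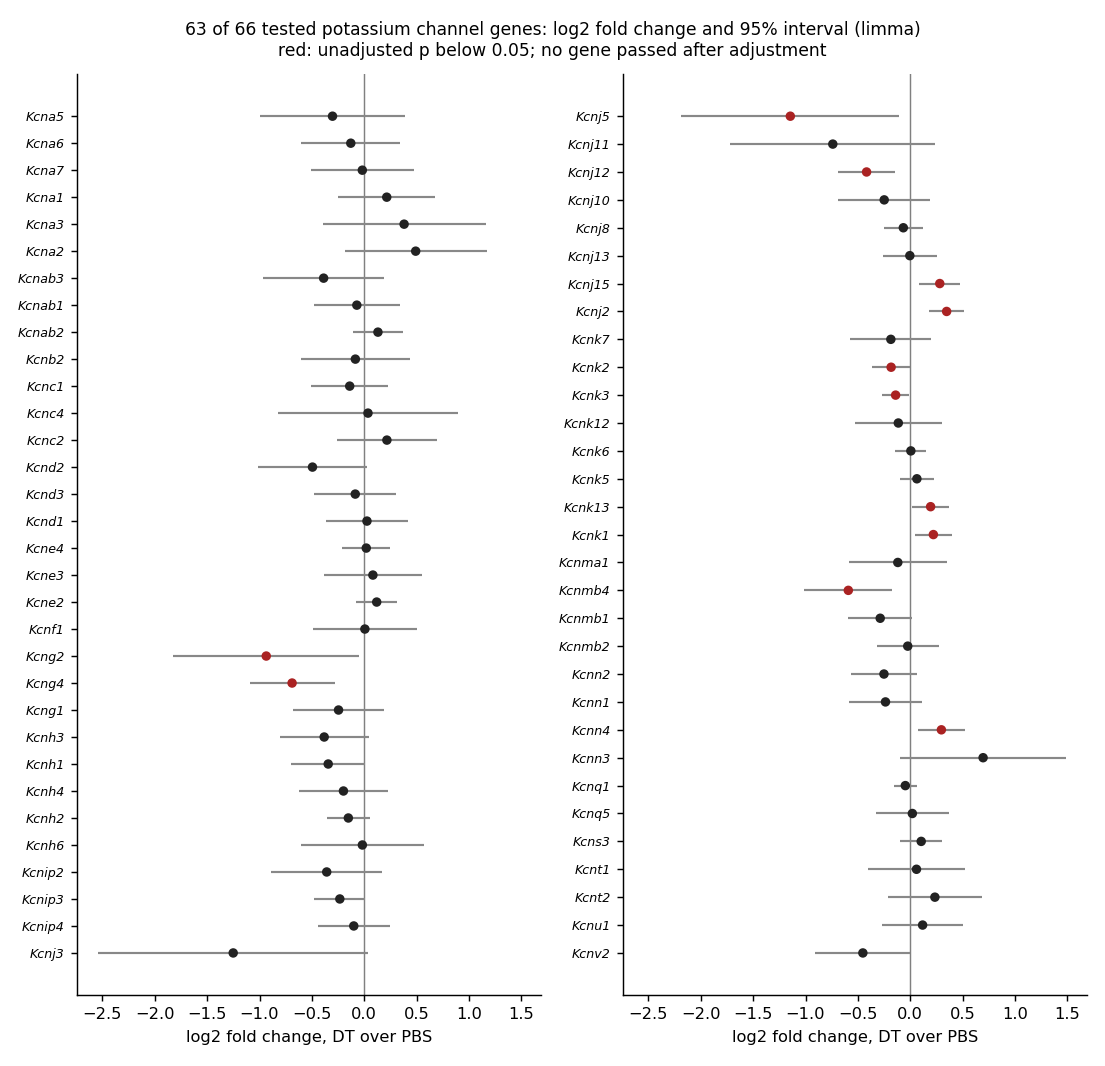
Log2 fold change of DT over PBS for 63 of the 66 tested members, grouped by subfamily, with 95% intervals from limma (horizontal axis) and red points for an unadjusted p below 0.05. Kcnj3, Kcnj5 and Kcng2 lie farthest to the left with wide intervals, and most members sit within 0.5 of 0.

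Inward rectifiers held the member with the lowest adjusted p (Kcnj2) and the one with the largest log2 fold change in either direction (Kcnj3). Of 14 members of this family, 9 were tested, and 7 of these had a negative and 2 a positive log2 fold change. Kcnj2 encodes a strong inward rectifier that holds the resting potential in muscle, endothelium and macrophages (mm10 chromosome 11, 111066164 to 111076821). It stood at 54.1, 49.0 and 51.5 RPM in PBS mice 1 to 3 and at 70.4, 59.3 and 68.2 in DT mice 1 to 3. Every DT mouse lay above every PBS mouse. Its log2 fold change was 0.35 ± 0.07 (SE) and its adjusted p by limma was 0.163, the lowest of the 66. Kcnj15, an inward rectifier known from kidney and other epithelia, stood at 125, 151 and 147 RPM in PBS and 183, 155 and 176 in DT, again without overlap (0.28 ± 0.09, adjusted p = 0.402). PBS mouse 1 was lowest and DT mouse 2 lay close to the PBS mice. Without PBS mouse 1 the log2 fold change was 0.38 for Kcnj2 and 0.20 for Kcnj15.

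Kcnj3 and Kcnj5 encode the subunits of the G protein-gated channel through which acetylcholine slows the atria of the heart (Kcnj3, mm10 chromosome 2, 55435970 to 55598145; Kcnj5, chromosome 9, 32314783 to 32344237). Kcnj3 stood at 18.2, 23.6 and 30.9 RPM in the PBS mice and at 5.13, 29.0 and 5.06 in DT mice 1 to 3. Kcnj5 stood at 19.1, 21.1 and 27.9 RPM in the PBS mice and at 5.61, 23.9 and 6.20 in DT mice 1 to 3. In both genes DT mice 1 and 3 lay far below the other 4 mice, and DT mouse 2 lay among the PBS mice. With all 6 mice the log2 fold change was -1.25 ± 0.56 for Kcnj3 and -1.15 ± 0.45 for Kcnj5 (limma adjusted p = 0.562 and 0.524). Without DT mouse 2 they were -2.02 and -1.76 (limma adjusted p = 0.00597 and 0.00573). Of the exonic bases of Kcnj3, 31.1% are shared with the opposite-strand gene Gm26794, and the use of strand in counting was not stated in the sources used.

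The 250 bases before the annotated start are shown for the 4 inward rectifiers just described, the 2 with the same pattern over mice first, so that what lies at each start can be read beside its values. They are from RefSeq (GRCm38.p6, the assembly that mm10 names), which held promoters for 59 of the 79 members. The bases just after each of the 4 RefSeq starts were found within a GENCODE M21 transcript of the gene. That checks gene and strand, not that the starts agree. For Kcnj5 the window begins at 32344345, whereas the listed gene, on the minus strand, starts at 32344237, so these 2 starts differ. Capitals mark matches on either strand to ACGTG, to AGATAA, to the CArG box of smooth muscle genes or to the MEF2 site of muscle genes. ACGTG is a form of the core of the hypoxia response element and also lies within the E-box. The other form of that core, GCGTG, was not searched for. The letters AGATAA are known from promoters of red cell genes. The windows are chr2:55435720-55435969 on the plus strand for Kcnj3, chr9:32344345-32344594 on the minus strand for Kcnj5, chr11:111065914-111066163 on the plus strand for Kcnj2 and chr16:95257308-95257557 on the plus strand for Kcnj15.
Kcnj3: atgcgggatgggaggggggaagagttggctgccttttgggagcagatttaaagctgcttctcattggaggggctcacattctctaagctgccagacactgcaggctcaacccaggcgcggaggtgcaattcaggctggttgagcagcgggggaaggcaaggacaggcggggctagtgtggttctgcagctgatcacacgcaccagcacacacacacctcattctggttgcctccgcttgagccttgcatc
Kcnj5: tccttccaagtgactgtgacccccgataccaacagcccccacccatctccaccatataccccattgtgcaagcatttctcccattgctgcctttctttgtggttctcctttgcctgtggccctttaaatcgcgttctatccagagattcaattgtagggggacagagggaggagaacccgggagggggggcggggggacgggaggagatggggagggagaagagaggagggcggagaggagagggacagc
Kcnj2: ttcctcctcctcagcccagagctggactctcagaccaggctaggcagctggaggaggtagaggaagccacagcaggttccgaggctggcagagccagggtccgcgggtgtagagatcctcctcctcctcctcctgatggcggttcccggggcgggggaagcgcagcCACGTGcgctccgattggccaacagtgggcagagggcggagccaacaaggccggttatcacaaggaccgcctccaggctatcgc
Kcnj15: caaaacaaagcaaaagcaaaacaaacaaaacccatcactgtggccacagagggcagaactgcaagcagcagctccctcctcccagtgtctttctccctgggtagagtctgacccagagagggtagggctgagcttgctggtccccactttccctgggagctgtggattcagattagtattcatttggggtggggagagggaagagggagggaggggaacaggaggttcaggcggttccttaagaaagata
ACGTG matched in the Kcnj2 promoter, where CACGTG reads the same on both strands, and in none of the other 3. No other motif of those searched matched in these 4 windows. The Kcnj3 window holds the unsearched form GCGTG on the strand not printed. ACGTG was found in 16.6% of all 32851 promoters of this length and in 14 of the 83 entries for members (16.9%), AGATAA in 9.99% and in 3 of 83 (3.61%), the CArG box in 1.47% and in 0 of 83, and the MEF2 site in 1.69% and in 1 of 83 (1.2%). A match is a description of the letters, not a site in use.

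The other inward rectifiers held the pores of the ATP-sensitive channels, which open when ATP falls. Kcnj8, the pore of the vascular form, stood between 26.7 and 29.7 RPM in PBS and between 24.9 and 29.2 in DT (log2 fold change -0.07, 95% interval -0.25 to 0.12). Its partner Abcc9 stood between 53.2 and 65.9 RPM in PBS and 47.5 and 56.7 in DT (-0.21 ± 0.09, limma adjusted p = 0.552). Kcnj11, the pore known from pancreatic beta cells and heart muscle, stood at 4.33, 6.34 and 5.45 RPM in PBS and at 1.07, 6.96 and 2.28 in DT mice 1 to 3. Its partner Abcc8 stood at 3.72, 5.06 and 4.56 RPM in PBS and at 1.97, 6.43 and 1.41 in DT. For both genes DT mice 1 and 3 were again the lowest of the 6, with log2 fold changes of -0.74 ± 0.43 for Kcnj11 and -0.53 ± 0.38 for Abcc8. Kcnj12, a strong inward rectifier of heart muscle, stood at 16.9, 17.2 and 20.9 RPM in PBS and 12.1, 15.1 and 13.2 in DT, so that its groups did not overlap (-0.42 ± 0.12, limma adjusted p = 0.358).

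Cardiac muscle markers, like Kcnj3 and Kcnj5, were lowest in DT mice 1 and 3. The 10 markers, among them Ryr2, the calcium release channel of heart muscle, and the sarcomere genes Mybpc3 and Myh6, summed to 338, 353 and 402 RPM in PBS mice 1 to 3 and to 191, 414 and 201 in DT mice 1 to 3. In all 10, DT mice 1 and 3 were the lowest of the 6 mice, which held for 6.95% of all genes tested. It held for 18 of the 66 potassium channel genes (27.3%), a count made after the values were seen. These included Kcng2, a modifier subunit known from heart, at 8.04, 8.15 and 11.7 RPM in PBS and 2.45, 9.66 and 3.10 in DT (-0.94 ± 0.39, limma adjusted p = 0.535). They also included Kcnip2, named after its values were seen, which encodes the calcium sensor of the fast transient channel of heart muscle, at 4.60, 3.73 and 4.56 RPM in PBS and 2.39, 4.99 and 2.45 in DT. None of the 10 markers was at 0 in every mouse, and Nppa, the atrial natriuretic peptide gene, ran from 0.0544 RPM in DT mouse 3 to 14.4 in PBS mouse 3. Adipocyte markers shared the pattern in part: DT mice 1 and 3 were the lowest of the 6 for 6 of 9 tested, and the 10 listed summed to 87.4, 174 and 137 RPM in PBS mice 1 to 3 and to 66.7, 169 and 71.2 in DT mice 1 to 3. The parts of heart muscle and of fat in these values were not tested.

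**Figure D3:**
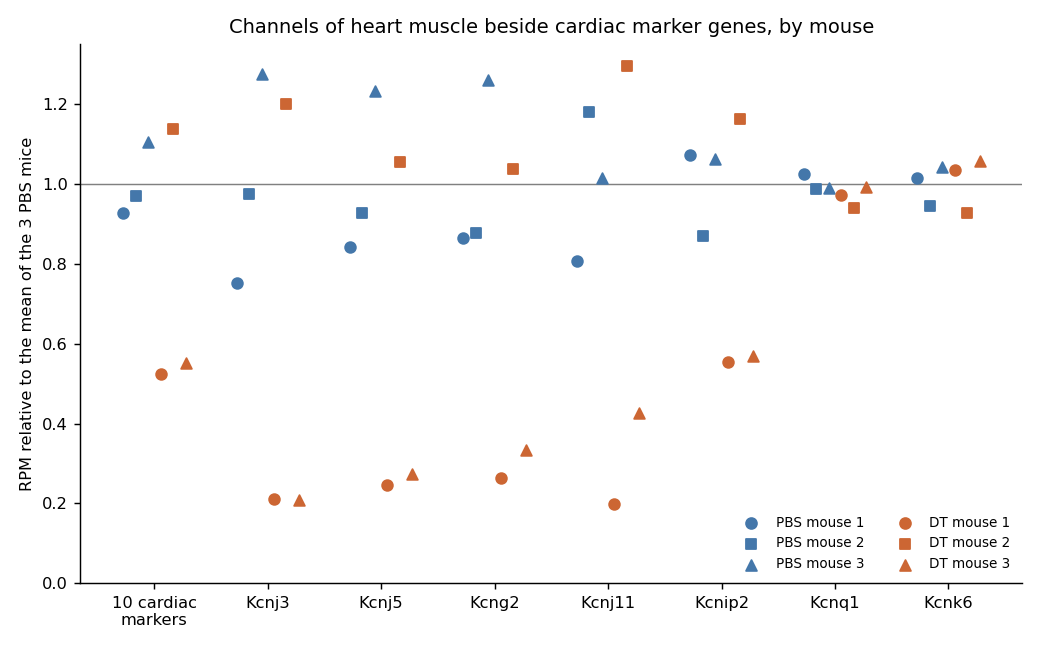
RPM in each mouse relative to the mean of the 3 PBS mice (vertical axis) for 10 summed cardiac muscle markers, for 5 channel genes known from excitable or endocrine cells, and for Kcnq1 and Kcnk6; blue is PBS, orange is DT, and circle, square and triangle are mouse 1, 2 and 3. DT mice 1 and 3 lie low for the markers and for Kcnj3, Kcnj5, Kcng2, Kcnj11 and Kcnip2. DT mouse 2 lies with the PBS mice. These 5 are all among the 18 of 66 members with DT mice 1 and 3 lowest, so they do not stand for heart channels at large. Kcnq1 and Kcnk6 stay near 1 in all 6, and Kcnj2, not drawn, lay higher in DT.

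Leaving out DT mouse 2 was the one setting among those run that brought members past the test: Kcnj3, Kcnj5 and Kcng2 were then lower and Kcnj2 higher. That is 1 of 66 higher (1.52%, against 0.305% of all genes in that fit) and 3 of 66 lower (4.55%, against 0.539%), with 0.844% of all genes called in either direction. Kcng2 then stood at a log2 fold change of -1.44 (adjusted p = 0.0185, limma) and Kcnj2 at 0.42 (adjusted p = 0.0236, limma). Without that mouse, the DT mice that remain are those with low cardiac and adipocyte markers, so that the treatment and the amounts of heart muscle and fat cannot be told apart in that fit.

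Among background channels, 10 members were present and 8 tested, 4 with a positive and 4 with a negative log2 fold change. Kcnk3 (mm10 chromosome 5, 30588170 to 30625270) stood at 113, 110 and 116 RPM in PBS and 95.4, 109 and 104 in DT. DT mouse 2, at 109, lay just under the lowest PBS mouse, at 110, so the groups did not overlap by a narrow margin (-0.14 ± 0.06, 95% interval -0.27 to -0.01, limma adjusted p = 0.524). Kcnk3, known from heart muscle too, was lowest in DT mice 1 and 3, the mice with low cardiac markers. DT mouse 2, also below every PBS mouse for Kcnk3, had the highest cardiac marker sum of the 6 (414 RPM). The part of heart muscle in Kcnk3 was not tested. Kcnk2, a channel opened by stretch and lipids, stood at 59.2, 53.6 and 52.7 RPM in PBS and 53.9, 46.6 and 45.1 in DT, with overlap (-0.18 ± 0.08). Kcnk6, a weakly rectifying channel whose loss raises pulmonary pressure in mice, stood between 55.2 and 60.9 RPM in PBS and between 54.1 and 61.7 in DT (95% interval of the log2 fold change -0.14 to 0.15). Kcnk5, an alkaline-activated channel of epithelia, had an interval of -0.10 to 0.23.

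Kcnk1, a weak inward rectifier of this family, stood at 32.9, 34.3 and 33.6 RPM in PBS and 44.1, 37.2 and 37.0 in DT, and DT mouse 1 stood apart from the other DT mice (0.22 ± 0.08, limma adjusted p = 0.45). Kcnk13, a channel known in brain from microglia, stood at 23.5, 23.0 and 20.6 RPM in PBS and 26.0, 24.3 and 26.8 in DT (0.19 ± 0.08, limma adjusted p = 0.529). Neither overlapped between groups. Macrophage markers, 10 tested and none past the test, summed to 327 to 382 RPM in PBS and 363 to 440 in DT, and alveolar epithelial markers, also 10 with none past the test, to 625 to 672 and 661 to 714. The part of these cells in the values of Kcnk1 and Kcnk13 was not tested.

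**Figure D4:**
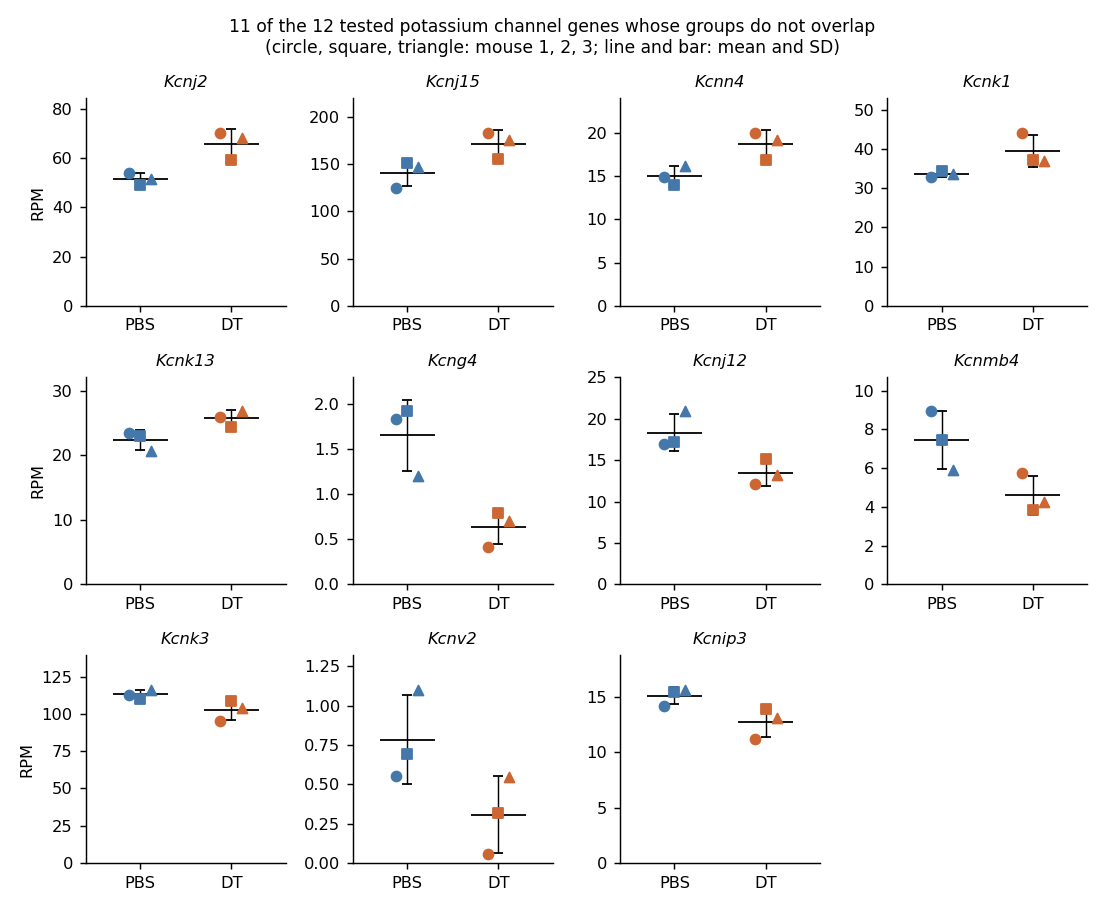
RPM in each mouse (vertical axes from 0) for 11 of the 12 tested members whose PBS (blue) and DT (orange) values do not overlap, with mean and SD as line and bar; circle, square and triangle are mouse 1, 2 and 3. Kcnj2, Kcnj15, Kcnn4, Kcnk1 and Kcnk13 lie higher in DT, and the other 6 lower. For Kcnv2 the closest PBS and DT values hold the same number of reads and differ by library size alone.

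Among the voltage-gated channels, Kcnq1, a channel of epithelia and heart, and Kcnq5, which is also found in smooth muscle, had 95% intervals of the log2 fold change of -0.16 to 0.06 and -0.33 to 0.37. Smooth muscle markers summed to 560 to 578 RPM in PBS and 542 to 583 in DT, with 0 of 10 past the test, and pericyte markers to 989 to 1006 and 976 to 1026, also with 0 of 10.

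Kcna5, an oxygen-sensitive channel of pulmonary artery smooth muscle, stood at 3.99, 7.14 and 6.24 RPM in PBS and 2.50, 6.80 and 4.73 in DT, with overlap and a 95% interval of -0.99 to 0.39. All 5 tested Kcnh members had a negative log2 fold change, as had 49.6% of all genes tested. Kcnh6 among them was near 0 (-0.02 ± 0.26), and 0 of the 5 had an unadjusted p below 0.05 by limma. Kcnh1 stood at 54.5, 44.6 and 65.1 RPM in PBS and 34.8, 44.6 and 49.1 in DT (-0.34 ± 0.15, limma adjusted p = 0.562). Kcnh2, the rapid delayed rectifier of heart muscle, had an interval of -0.36 to 0.05. Kcng4, a modifier subunit that opens no channel alone, stood at 1.83, 1.92 and 1.21 RPM in PBS and 0.417, 0.797 and 0.707 in DT. Its groups did not overlap (-0.69 ± 0.18, limma adjusted p = 0.288). Kcnv2, another modifier, lay at 0.555 to 1.10 RPM in PBS and 0.0596 to 0.544 in DT (-0.45 ± 0.20). Its groups did not overlap in RPM, but these values rest on few reads, with 1 read in DT mouse 1. The lowest PBS value (0.555, mouse 1) and the highest DT value (0.544, mouse 3) held the same number of reads. They differed by library size alone.

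Kcna2 and Kcna3, neighbours on chromosome 3, and Kcnn3, a small-conductance calcium-activated channel of endothelium, had PBS mouse 1 as the lowest of the 6 mice. Kcna3 stood at 8.38 RPM in that mouse and at 18.7 and 26.3 in the other PBS mice, and at 24.0, 17.5 and 23.0 in DT. Kcnn3 stood at 6.43 RPM in PBS mouse 1, 14.4 and 20.4 in the others, and 25.5, 16.5 and 21.4 in DT. The log2 fold change of Kcnn3 was 0.70 ± 0.35 (limma adjusted p = 0.602) but 0.27 without PBS mouse 1. That of Kcna3 was 0.38 ± 0.34 and turned to -0.05 without that mouse, and that of Kcna2 went from 0.49 ± 0.30 to 0.13. PBS mouse 1 was the lowest for 17 of the 66 members (25.8%), against 19.2% of all genes. It was also low for summed T cell markers (97.7 RPM, where PBS mice 2 and 3 had 118 and 138) and B cell markers (98.5, where they had 137 and 158), of which none passed the test. In DT mice 1 to 3, whose Kcna3 was above that of PBS mouse 1, the T cell sums were 114, 99.5 and 109 RPM and the B cell sums 120, 105 and 88.5, so that DT mouse 2 was near PBS mouse 1 for T cells and DT mouse 3 below it for B cells. Their part in Kcna3 was not tested.

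Among the channels opened by calcium, Kcnn4 lay higher in DT without overlap. It encodes the intermediate-conductance channel of red cells, through which they lose potassium and water, and is also known from T cells and macrophages. Kcnn4 stood at 14.9, 14.0 and 16.2 RPM in PBS and 20.0, 16.9 and 19.2 in DT (0.30 ± 0.10, 95% interval 0.07 to 0.52, limma adjusted p = 0.446). The sum of erythroid markers was higher in all 3 DT mice, and it was highest in DT mouse 1 (414 RPM), where Kcnn4 was highest too. Not every marker was higher, as Hbb-bs, a globin gene, had a log2 fold change of -0.15. In DT mouse 2 the sum was 343 and in DT mouse 3 it was 329, while Kcnn4 was higher in the latter. The part of red cell precursors in Kcnn4 was not tested. Kcnma1 had a log2 fold change of -0.12 (95% interval -0.59 to 0.35) at 2.45 to 4.42 RPM over the 6 mice. Kcnn2 stood at 6.09 to 9.75 RPM with an interval of -0.57 to 0.07.

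Auxiliary subunits lay mostly lower or near 0. All 3 tested auxiliary subunits of the large-conductance channel had a negative log2 fold change, as had 49.6% of all genes tested. Kcnmb2 among them was near 0 (-0.02 ± 0.13) and turned to 0.06 without DT mouse 3. Kcnmb4, the subunit best known from neurons, stood at 8.93, 7.46 and 5.92 RPM in PBS and 5.73, 3.82 and 4.24 in DT, with DT mouse 1 just under the lowest PBS mouse (-0.59 ± 0.18, limma adjusted p = 0.409). Antisense genes on the opposite strand share 31.5% of its exonic bases. Kcnmb1, the subunit of smooth muscle, stood at 25.1, 30.9 and 23.3 RPM in PBS and 17.9, 23.4 and 23.1 in DT, with overlap (-0.29 ± 0.13). Kcnip3, a calcium sensor that also binds DNA, lay at 14.2 to 15.6 RPM in PBS and 11.2 to 13.9 in DT without overlap (-0.23 ± 0.11). Kcne2, Kcne3 and Kcne4 had intervals of -0.08 to 0.31, -0.38 to 0.55 and -0.21 to 0.25, and Kcnab2, the most abundant Kcnab subunit, one of -0.11 to 0.37.

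**Figure D5:**
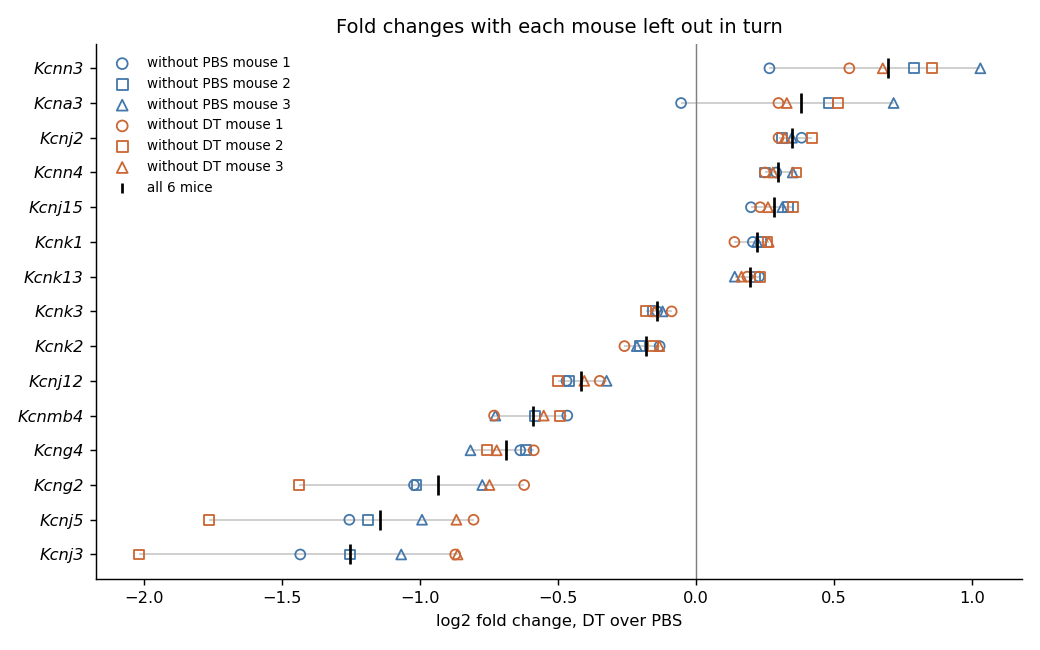
Log2 fold change of DT over PBS (horizontal axis) with all 6 mice (black bar) and with each mouse left out in turn (open symbols, blue for a PBS and orange for a DT mouse) for 12 of the 13 members with an unadjusted p below 0.05 and for Kcnj3, Kcnn3 and Kcna3. Kcnj3, Kcnj5 and Kcng2 move most without DT mouse 2, and Kcna3 and Kcnn3 move most without PBS mouse 1 or 3.

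Genes that work with potassium channels under other names did not pass the test either. Of 16 partners and related pores, 13 were tested, 0 passed, 4 were positive and 9 negative, with a median log2 fold change of -0.19. They included Tmem38a, a potassium-permeable channel of the sarcoplasmic reticulum (43.4, 43.8 and 42.7 RPM in PBS, 31.0, 39.7 and 36.0 in DT; -0.28 ± 0.09, limma adjusted p = 0.395), and Hcn4, the pacemaker channel of the heart (2.20 to 3.09 RPM in PBS, 1.13 to 2.18 in DT; -0.47 ± 0.19). Of 17 voltage-gated calcium channel subunits, 0 passed, 5 were positive and 12 negative (median -0.13). Cacna1c, the main L-type pore of smooth muscle, stood at 71.7, 82.1 and 85.8 RPM in PBS and 86.2, 86.3 and 83.0 in DT (0.10 ± 0.07). The 14 genes of the sodium-potassium pump and of potassium cotransport had a median of 0.01, with 7 positive, 7 negative and 0 past the test.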

How the data were processed

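Per gene, 25965 in all, the deposited values of 6 libraries are the log2 of RPM as the authors made it; the build mm10 and the tools FastQC and Trimmomatic are named in the submitters' processing notes, and libraries were of polyadenylated RNA per the labels' protocols. Aligner, counter and use of strand: not given in the sources used here. On the linear scale all values but the lowest (100%, tolerance 0.1%) were whole reads, which gave the depth, and the lowest, at 0.9 of a read, was set to 0. The authors' columns of group means, also log2, were not used. Library columns were matched to samples by their descriptions. Groups and mouse numbers are from the sample titles. Nothing says how animals were raised or batched, so p-values measure the spread between these 3 and 3 mice. DT was compared with PBS by limma 3.58.1 under R 4.3.3 on log2(RPM + 1), with its trend option, 2-sided, adjusted by Benjamini-Hochberg over 16708 genes with at least 0.538 RPM (10 reads in a library of median depth) in 3 libraries and 15 reads in all. Fold changes on this scale understate those of low genes. Exonic lengths are from GENCODE M21, which held all 79 members. The members, lists and named genes were chosen with earlier results of these data known. Named were members past the test, the 2 most abundant per subfamily, the 10 largest changes at 1 RPM or more, those with an unadjusted p below 0.05 and a fixed set by known role; of the 54 so named, 51 could be reported and not all are described. Results for some genes are not reported here, though counts over all members include them. On simulated data for this comparison (16708 genes), limma recovered 50% of genes changed 1.5-fold and 78% of those changed 2-fold, with 9 of 168 calls false. The changed genes were drawn from all genes tested, and no simulated mouse departed from its group over many genes. These rates may thus not hold for the members, which are sparser. Alternatives were 2 scalings, no filter, a pseudocount of 0.25, limma-voom on recovered reads, a replicate block and leaving out each mouse. Of the marker lists not described in the report, endothelial markers summed to 852 to 931 RPM in PBS and 851 to 926 in DT, airway to 297 to 339 and 305 to 361, neural and glial to 41.8 to 45.2 and 34.1 to 45.0, and mesothelial to 251 to 338 and 305 to 409 (1 of 10 past the test, higher). Plots were drawn with matplotlib 3.10.9.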

Additional observations from a re-analysis of the deposited data

How the results depend on the processing

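The count of 0 members higher and 0 lower held under every setting run with all 6 mice and with any mouse but DT mouse 2 left out; with 1 mouse left out it ran from 0 to 1 higher and from 0 to 3 lower, and members with an unadjusted p below 0.05 numbered 9 to 21. The members' median log2 fold change ran from -0.14 to -0.02 with 1 mouse left out and moved by less than its spread between mice. Over all genes, 46 higher and 1 lower became 38 and 0 under median-of-ratios scaling and 39 and 2 under upper-quartile scaling; with 1 mouse left out the counts ran from 0 (without DT mouse 1; 14 without DT mouse 3) to 56 higher and from 0 to 90 lower (without DT mouse 2; 10 without PBS mouse 1). The labels do not say whether the mouse numbers pair the samples. Deviations of same-numbered mice correlated at 0.084, 0.268 and -0.1, and not every mouse correlated best with its own number. Deviations from means of 3 mice cannot settle whether the numbers pair them. With the replicate block, 8 genes were higher and 0 lower, and 0 members passed; the cause was not tested. With all mice, 3 of 300 values for 50 named members changed sign, all near 0: Kcnf1 to -0.0034 under upper-quartile scaling and -0.0054 under limma-voom, and Kcnk6 to -0.0042 under upper-quartile scaling. With 1 mouse left out, 17 of these members changed sign; their log2 fold changes ran from -0.0538 to 0.72 for Kcna3, from -0.57 to 0.0075 for Kcna5, from -0.21 to 0.0202 for Kcnab1, from -0.26 to 0.11 for Kcnb2, from -0.35 to 0.42 for Kcnc4, from -0.11 to 0.15 for Kcnd1, from -0.22 to 0.0261 for Kcnd3, from -0.15 to 0.24 for Kcne3, from -0.0662 to 0.14 for Kcne4, from -0.21 to 0.23 for Kcnf1, from -0.21 to 0.001 for Kcnip4, from -0.0344 to 0.0626 for Kcnk6, from -0.28 to 0.0218 for Kcnma1, from -0.14 to 0.064 for Kcnmb2, from -0.11 to 0.16 for Kcnq5, from -0.13 to 0.18 for Kcnt1 and from -0.0151 to 0.20 for Kcnu1. At this depth 1 read is 0.0524 to 0.0596 RPM, so members near the filter rest on few reads.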
